A study of Homo sapiens with 12 samples.

Results

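The IFIT family, the interferon-induced proteins with tetratricopeptide repeats, was followed in the established human line NS-SV-AC, derived from acinar cells of a salivary gland. The 4 members, IFIT1, IFIT2, IFIT3 and IFIT5, were chosen by gene symbol and were 4 of the 60609 annotated genes, with 8 of the 227462 annotated transcripts. All 4 passed the filter on low values, and the depc libraries alone would have passed each of them, IFIT2 through 2 of these libraries. The compounds were 2-CM, which is the nucleoside analogue 2'-C-methyladenosine, and RES, which is resveratrol, with DMSO as their solvent control. Each was combined with a transfection of poly I:C, an artificial mimic of viral double-stranded RNA, or of the control named depc in the labels. The 6 groups were therefore DMSO depc, DMSO poly I:C, 2-CM depc, 2-CM poly I:C, RES depc and RES poly I:C, each with 2 libraries. Per the labels, the compounds were added 24 h before transfection and once more with it, at a labelled dose of 20 read here as micromolar. DMSO was matched by volume, poly I:C was left for 14 h, and growth lasted 48 h. The study's title places it in work on double-stranded RNA from mitochondria and Sjögren's syndrome, an autoimmune disease of the salivary and tear glands. All groups share a single cell line, and no label says whether replicates were separate cultures, so the p-values measure only the spread between these libraries.

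Cells that sense double-stranded RNA in the cytosol make type I and type III interferons, which act through receptor-bound kinases on the transcription factor ISGF3. It binds the interferon-stimulated response element in front of antiviral genes, and IRF3 can act on many of the same elements without interferon. IFIT1 binds RNA whose cap lacks ribose methylation, or that ends in a bare triphosphate, and keeps it from being translated. IFIT3 binds IFIT1 and stabilises it, IFIT2 joins the same complexes and binds AU-rich RNA, and IFIT5 binds triphosphate-ended RNA on its own.

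The sequences in front of the IFIT genes were searched for the core of that response element. They are shown because this element is the one through which interferon acts on such genes. The table of promoters from RefSeq (build GRCh38.p14) held 1 start for IFIT1, 2 for IFIT3 and 1 for IFIT5, and IFIT2 had no entry. Capitals mark TTTCNNTTTC, searched on both strands in the 250 bases before each start. For IFIT1 and IFIT3 the stretches end where an annotated exon of the gene begins, or at the end of a match that reaches into it. For IFIT5, whose window contains an exon of another gene, only the matches with the 2 bases before them are shown. All are on the plus strand.
IFIT1, chr10:89392373-89392545: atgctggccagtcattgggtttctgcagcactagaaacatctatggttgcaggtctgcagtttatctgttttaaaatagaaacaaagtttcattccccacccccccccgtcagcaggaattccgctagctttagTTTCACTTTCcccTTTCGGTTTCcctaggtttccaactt
IFIT3, upstream start, chr10:89327747-89327996: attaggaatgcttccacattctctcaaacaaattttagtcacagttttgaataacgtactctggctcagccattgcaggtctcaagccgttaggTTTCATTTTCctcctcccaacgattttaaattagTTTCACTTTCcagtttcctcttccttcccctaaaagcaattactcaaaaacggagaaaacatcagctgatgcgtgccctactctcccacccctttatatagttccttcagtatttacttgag
IFIT3, downstream start, chr10:89332279-89332487: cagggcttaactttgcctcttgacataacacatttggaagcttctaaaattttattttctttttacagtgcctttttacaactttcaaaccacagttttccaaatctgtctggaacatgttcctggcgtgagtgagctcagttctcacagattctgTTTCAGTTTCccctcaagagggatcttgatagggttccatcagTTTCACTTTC
IFIT5, first site, chr10:89414521-89414532: agTTTCGGTTTC
IFIT5, second site, chr10:89414547-89414558: agTTTCGATTTC

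Each of the 4 windows held 2 matches. In IFIT1 they began 116 and 103 bases before the start. They began 156 and 122 bases before the upstream start of IFIT3 and 94 and 51 before its downstream start. In IFIT5 they lay nearest to the start, 45 and 19 bases before it, where the window also covers an exon of LIPA at chr10:89414407-89414557 on the other strand. Of 35116 RefSeq windows of the same length, 1061 (3.02%) held the motif and 79 (0.225%) held it at least 2 times. The longer form AGTTTCNNTTTC, which contains the shorter one, occurred once in the windows of IFIT1 and of both IFIT3 starts and 2 times in that of IFIT5, against 79 (0.225%) of all windows with at least 1. Among the windows of the other interferon-induced antiviral genes listed below, 13 of 24 held the shorter form. At least 2 matches of it were in 8 of these 24, and the longer form was in 8 of 24. A match describes the letters only.

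The libraries held 31.2 to 49.4 M estimated reads, and 13438 to 16554 genes reached 1 TPM (a level scaled for transcript length and for the library's total). As log2(TPM + 1), the replicates of a group had a median SD over genes from 0.105 in 2-CM poly I:C to 0.427 in RES depc. The acinar markers AQP5, MUC7 and PIP were listed at 0 in every library, and the summed level of all 6 acinar markers was 0.646 to 2.71 TPM with depc and 0.529 to 1.29 TPM with poly I:C. The keratins KRT8 (630 to 1958 TPM) and KRT18 (466 to 1571 TPM) were high throughout. The other epithelial markers were low or absent, with CDH1 at 0.189 to 0.596 TPM, EPCAM at 0.0869 to 1.23 TPM, and KRT5 and KRT14 listed at 0. The summed level of the 6 epithelial markers was 1682 to 3530 TPM with depc and 1098 to 1733 TPM with poly I:C. The leukocyte markers PTPRC and CD3E were listed at 0. The summed myoepithelial markers, with ACTA2 at 13.5 to 28.6 TPM and TP63 at or under 0.0434 TPM, were 23.1 to 35.6 TPM with depc and 15.1 to 31.2 TPM with poly I:C. The summed fibroblast markers, with COL1A1 at 15.9 to 100.3 TPM and COL1A2 at or under 0.0193 TPM, were 59.2 to 114 TPM with depc and 28.3 to 65.9 TPM with poly I:C. The part of these marker sums in the results was not tested.

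The members lie together on chromosome 10 of GRCh38, all on the plus strand. IFIT2 (ENSG00000119922.10) spans 89283694 to 89309271, IFIT3 (ENSG00000119917.14) 89327997 to 89340971, IFIT1 (ENSG00000185745.10) 89392546 to 89406487 and IFIT5 (ENSG00000152778.9) 89414568 to 89420997. LIPA, the lysosomal acid lipase, runs across IFIT1, IFIT2 and IFIT3 on the minus strand from 89213569 to 89414557. Its exons shared no base with those of IFIT1, IFIT3 or IFIT5 and 65 of the 4074 exonic bases of IFIT2, through 1 of 8 LIPA transcripts, whose level was 0 to 0.911 TPM. The relatives in the same cluster were close to silent: IFIT1B reached at most 0.478 TPM and the pseudogene IFIT6P at most 0.0575 TPM.

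All 4 members were higher in every poly I:C library than in every depc library. Across the genes tested, 1.33% had this order. In bulk RNA, more responding cells and more RNA per cell cannot be told apart.

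IFIT1, the sensor of incompletely methylated caps, stood at 2.06 and 1.16 TPM (replicates 1 and 2) in DMSO depc, 1.14 and 1.06 in 2-CM depc, and 3.50 and 1.32 in RES depc. With poly I:C it stood at 97.5 and 47.7 TPM in DMSO, 255 and 202 in 2-CM, and 44.5 and 132 in RES. The 2-CM poly I:C libraries were the highest, with a mean of 228 ± 37.8 TPM (SD, n = 2), and did not overlap the other groups. Of the genes tested, 45.1% had both 2-CM poly I:C libraries above the other 4 poly I:C libraries. The DMSO (72.6 ± 35.2) and RES (88.4 ± 62.1) poly I:C groups overlapped each other, as did DMSO depc and RES depc.

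IFIT2, the partner that binds AU-rich RNA, was the lowest member in TPM in 5 of the 6 depc libraries, while IFIT5 was the lowest in all 6 poly I:C libraries. IFIT2 stood at 0.602 and 0.352 TPM in DMSO depc, 0.474 and 0.512 in 2-CM depc, and 3.80 and 1.22 in RES depc. With poly I:C it reached 40.0 and 17.9 TPM in DMSO, 78.72 and 66.99 in 2-CM, and 22.2 and 59.1 in RES. Again 2-CM poly I:C was highest (72.9 ± 8.30), and DMSO and RES poly I:C overlapped. Both RES depc libraries lay above the other 4 depc libraries, as they did for IFIT3, an order found in 17.4% of the genes tested.

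IFIT3, the stabiliser of IFIT1, stood at 2.99 and 2.10 TPM in DMSO depc, 2.40 and 1.64 in 2-CM depc, and 10.5 and 3.61 in RES depc. With poly I:C it reached 178 and 78.4 TPM in DMSO, 267 and 257 in 2-CM, and 62.7 and 169 in RES. In each of the 6 poly I:C libraries it was the highest member in TPM. The replicates of 2-CM poly I:C nearly coincided (262 ± 7.19), and those of DMSO (128 ± 70.8) and RES (116 ± 75.4) overlapped each other below it.

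IFIT5, the member that acts outside the IFIT1 complexes, stood at 5.11 and 2.19 TPM in DMSO depc, 2.46 and 1.63 in 2-CM depc, and 7.39 and 1.97 in RES depc. With poly I:C it reached 29.7 and 9.48 TPM in DMSO, 60.5 and 50.3 in 2-CM, and 9.85 and 32.3 in RES. Its 3 depc groups overlapped, and its highest depc library (7.39) came close to its lowest poly I:C library (9.48). In that depc library, RES depc replicate 1, coverage was 5.64 reads per base in the first exon and 22.7 in the last. Both 2-CM poly I:C libraries lay above the other 4 poly I:C libraries for all 4 members, an order found in 45.1% of the genes tested.

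**Figure D1:**
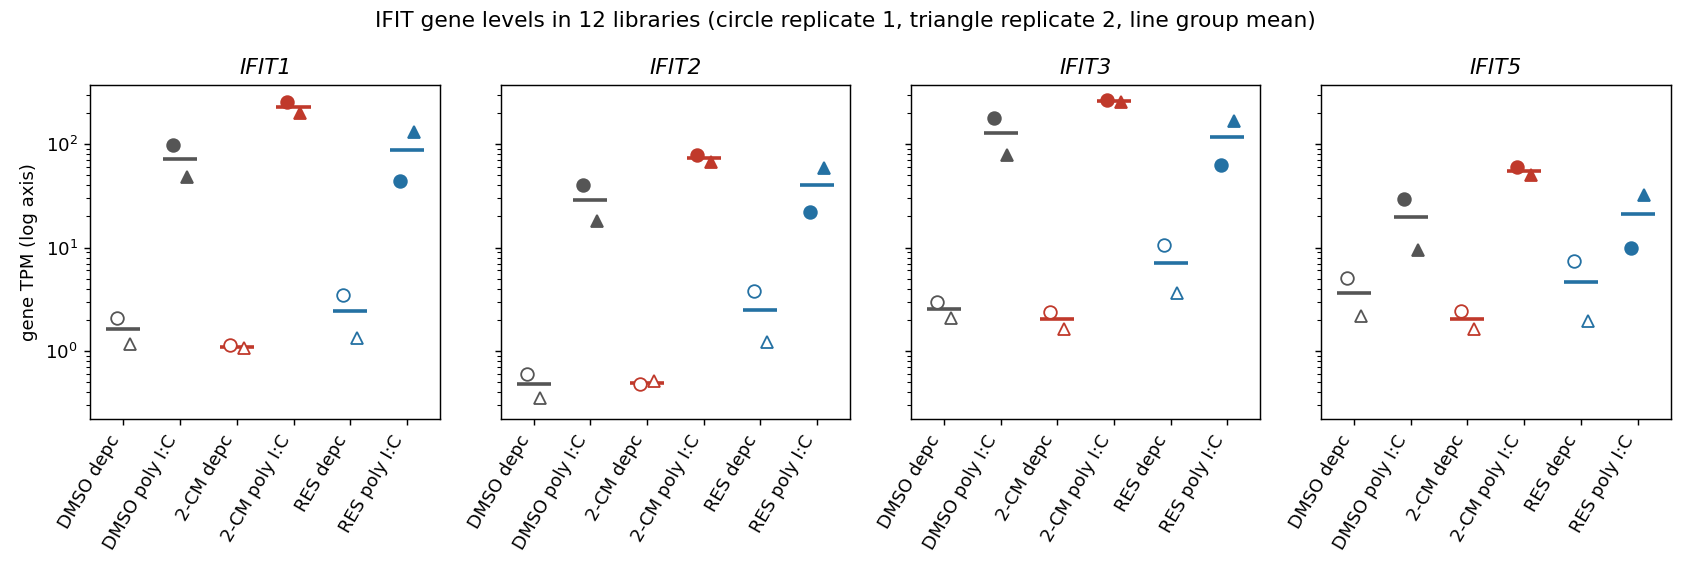
Gene TPM (log axis) of each IFIT member in the 12 libraries, by group; circles are replicate 1, triangles replicate 2, lines group means, open symbols depc and filled symbols poly I:C. Every filled symbol lies above every open one within a panel, with the smallest gap in IFIT5 (7.39 against 9.48 TPM).

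The rise with poly I:C was then tested under each compound. Fold changes are differences of log2(TPM + 1) from limma, which understate the change of low genes, and a gene was called at an adjusted p under 0.05. Under DMSO, 3 of 4 members rose, while 0.797% of the 17185 genes tested were called higher and 3.28% lower. The log2 fold change was 4.75 (SE 0.55, adjusted p = 0.00608) for IFIT1, 4.24 (SE 0.54, adjusted p = 0.00890) for IFIT2 and 5.09 (SE 0.58, adjusted p = 0.00590) for IFIT3. These were the 6th, 10th and 5th largest rises of all genes tested. IFIT5 had a log2 fold change of 2.02 (95% interval 0.40 to 3.65, adjusted p = 0.155) and was not called. No member was called without either DMSO depc library or in a fit of the 4 DMSO libraries alone, and 1 was called without DMSO poly I:C replicate 1. Over all genes, 701 calls became 25 to 82 without any one of the DMSO libraries.

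Under 2-CM all 4 members rose, and 37.5% of genes were called higher and 11.8% lower. The values were 6.76 (SE 0.55, adjusted p = 6.88e-04) for IFIT1, 5.62 (SE 0.54, adjusted p = 0.00177) for IFIT2, 6.45 (SE 0.58, adjusted p = 0.00129) for IFIT3 and 4.22 (SE 0.71, adjusted p = 0.0209) for IFIT5. The median of all genes was itself 0.61 under 2-CM, and it was 0.18 with upper-quartile and 0.03 with median-of-ratios scaling, under which the members stayed called. IFIT1 had the 2nd largest rise of all genes tested and IFIT3 the 3rd. Without any one of the 4 libraries of the 2-CM groups, IFIT5 was not called (adjusted p = 0.0792 to 0.153) and the other 3 members were, while the genes called in all went from 8475 to between 37 and 46.

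Under RES, 3 members rose, against 0.198% of genes called higher and 0.244% lower. The values were 4.59 (SE 0.55, adjusted p = 0.0144) for IFIT1, 3.52 (SE 0.54, adjusted p = 0.0373) for IFIT2 and 3.84 (SE 0.58, adjusted p = 0.0362) for IFIT3. IFIT5, at 1.93 (95% interval 0.31 to 3.55, adjusted p = 0.277), was not called. These calls rested on few libraries: none was left without RES depc replicate 2, without RES poly I:C replicate 2 or in a fit of the 4 RES libraries alone. With 8 other libraries left out in turn 1 member was called, and without either DMSO poly I:C library 3 were. The count was also 1 in each of 3 further settings: the replicate number as a block, low genes left in, and the most abundant transcript of each gene alone.

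Averaged over the compounds, all 4 members rose, against 13.4% of genes called higher and 17.8% lower. The average was 5.37 (SE 0.31, adjusted p = 4.26e-05) for IFIT1, 4.46 (SE 0.31, adjusted p = 1.20e-04) for IFIT2, 5.13 (SE 0.33, adjusted p = 8.29e-05) for IFIT3 and 2.72 (SE 0.41, adjusted p = 0.00347) for IFIT5.

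**Figure D2:**
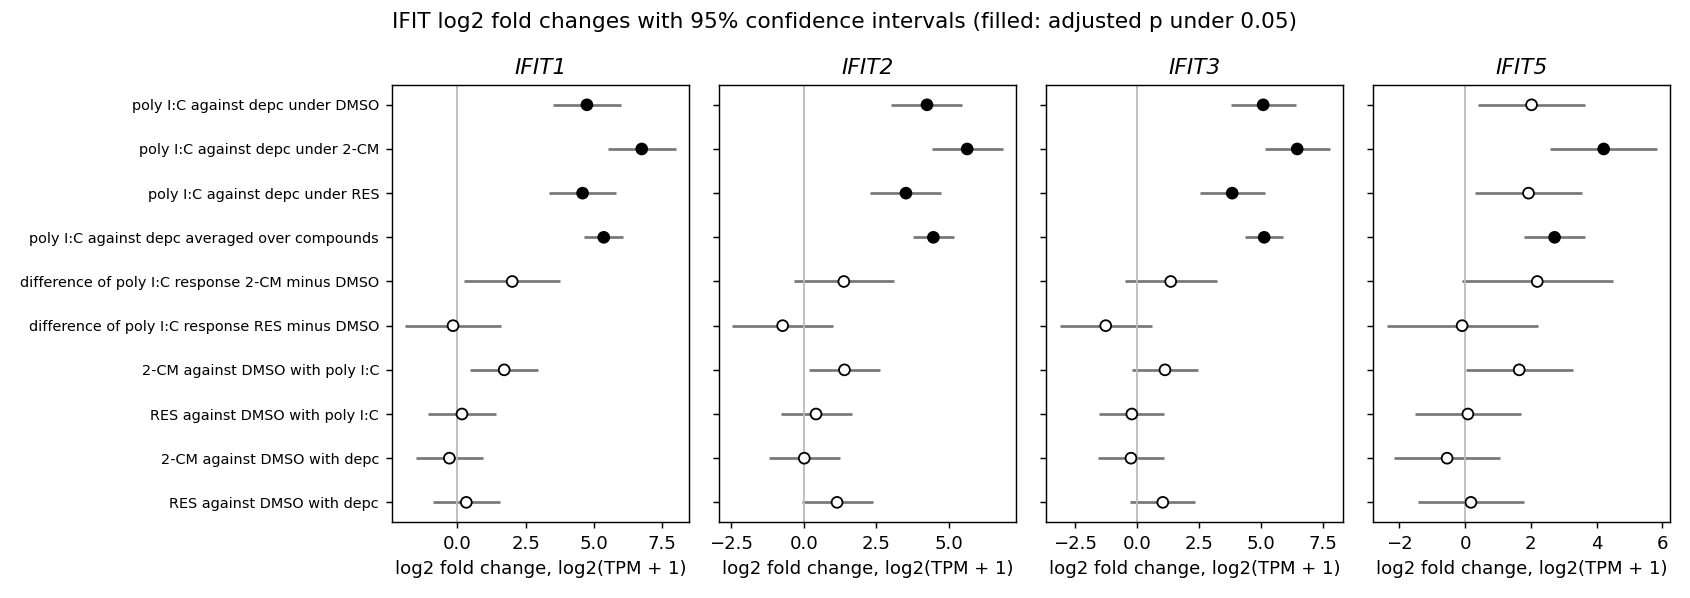
Log2 fold change (x axis, log2(TPM + 1) scale, which differs between panels) of each member in 10 comparisons, with 95% confidence intervals from limma; filled points have an adjusted p under 0.05. The poly I:C comparisons lie to the right of 0, and the filled points are all among them, while IFIT5 is filled under 2-CM (4.22) and in the average (2.72) alone.

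Whether a compound altered the response was asked with the difference of responses. For 2-CM minus DMSO no member was called, and 0.0116% of genes were, while 5097 genes had an unadjusted p under 0.05 in limma. The difference was 2.01 for IFIT1 (95% interval 0.26 to 3.76, adjusted p = 0.161), 1.38 for IFIT2 (-0.35 to 3.11, adjusted p = 0.224), 1.37 for IFIT3 (-0.49 to 3.22, adjusted p = 0.253) and 2.20 for IFIT5 (-0.10 to 4.49, adjusted p = 0.175). The median of all genes for this difference was 0.68. With median-of-ratios scaling the members' values were 1.10, 0.53, 0.43 and 1.29 in the same order, and with a correction of each library for gene GC content 1.27, 0.64, 0.91 and 1.06. Without DMSO poly I:C replicate 2 they were 1.50, 0.82, 0.78 and 1.42, and without replicate 1 they were 2.52, 1.94, 1.96 and 2.97 (adjusted p = 0.0707 to 0.117). IFIT1 was at 4.15 with the most abundant transcript alone. That transcript was assigned 4.09% of the IFIT1 TPM in DMSO poly I:C replicate 1 and 96.6% in replicate 2. For RES minus DMSO no member and 0% of genes were called in limma, and 293 genes had an unadjusted p under 0.05. The differences were -0.16 for IFIT1 (-1.91 to 1.59), -0.72 for IFIT2 (-2.45 to 1.00), -1.25 for IFIT3 (-3.10 to 0.61) and -0.09 for IFIT5 (-2.39 to 2.20), each with an adjusted p of 1. These intervals span both a lower and a higher response under RES.

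With poly I:C present, 2-CM was next set against DMSO. No member was called, and 0.105% of genes were, while 5884 genes had an unadjusted p under 0.05 in limma. The difference was 1.72 for IFIT1 (95% interval 0.48 to 2.96, adjusted p = 0.112), 1.40 for IFIT2 (0.18 to 2.62, adjusted p = 0.127), 1.14 for IFIT3 (-0.17 to 2.45, adjusted p = 0.176) and 1.65 for IFIT5 (0.02 to 3.27, adjusted p = 0.144). The median of all genes was 0.59 here. With median-of-ratios scaling the values were 0.94, 0.64, 0.36 and 0.90. They were 1.21, 0.84, 0.55 and 0.87 without DMSO poly I:C replicate 2, and 2.23, 1.96, 1.73 and 2.42 without replicate 1. IFIT1 was at 3.89 with the most abundant transcript alone, which held 4.09% of its TPM in DMSO poly I:C replicate 1. After the same GC correction, IFIT1 (1.31, adjusted p = 0.0302) and IFIT2 (1.00, adjusted p = 0.0388) were called, but so were 31.3% of all genes. IFIT3 (0.90) and IFIT5 (1.01) were not called with it. RES against DMSO with poly I:C gave 0.17 for IFIT1 (-1.07 to 1.41), 0.42 for IFIT2 (-0.80 to 1.65), -0.20 for IFIT3 (-1.51 to 1.12) and 0.08 for IFIT5 (-1.54 to 1.71), where IFIT1 and IFIT5 fell below 0 when libraries were scaled by upper quartile or by median of ratios. IFIT1 was at 2.31 there with the most abundant transcript alone, with the same 4.09% in DMSO poly I:C replicate 1. No member was called, against 0.157% of genes.

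Without poly I:C, no member was called in either compound. For 2-CM against DMSO with depc 0.0349% of genes were called, and the members were at -0.29 for IFIT1 (95% interval -1.53 to 0.95), 0.02 for IFIT2 (-1.20 to 1.24), -0.23 for IFIT3 (-1.54 to 1.08) and -0.55 for IFIT5 (-2.17 to 1.07). For RES against DMSO with depc 1.03% of genes were called, and the values were 0.33 for IFIT1 (-0.91 to 1.57), 1.15 for IFIT2 (-0.07 to 2.37, adjusted p = 0.378), 1.05 for IFIT3 (-0.26 to 2.36, adjusted p = 0.482) and 0.18 for IFIT5 (-1.45 to 1.80). IFIT2 and IFIT3 were the members for which both RES depc libraries lay above the other 4 depc libraries, an order seen in 17.4% of genes. Without RES depc replicate 1, IFIT2 was at 0.59 and IFIT3 at 0.39, and without replicate 2 they were at 1.70 and 1.71.

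The make-up of the family changed with poly I:C. The summed level of the 4 members was 4.85 to 25.2 TPM with depc and 139 to 661 TPM with poly I:C. IFIT5 supplied 24.2% to 47.5% of it with depc and 6.18% to 9.14% with poly I:C. IFIT1 went the other way, from 13.9% to 21.8% with depc to 28.2% to 38.6% with poly I:C. The shares of IFIT2 (5.59% to 15.1% against 11.6% to 16.0%) and IFIT3 (27.8% to 44.5% against 40.4% to 51.6%) overlapped between the transfections.

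**Figure D3:**
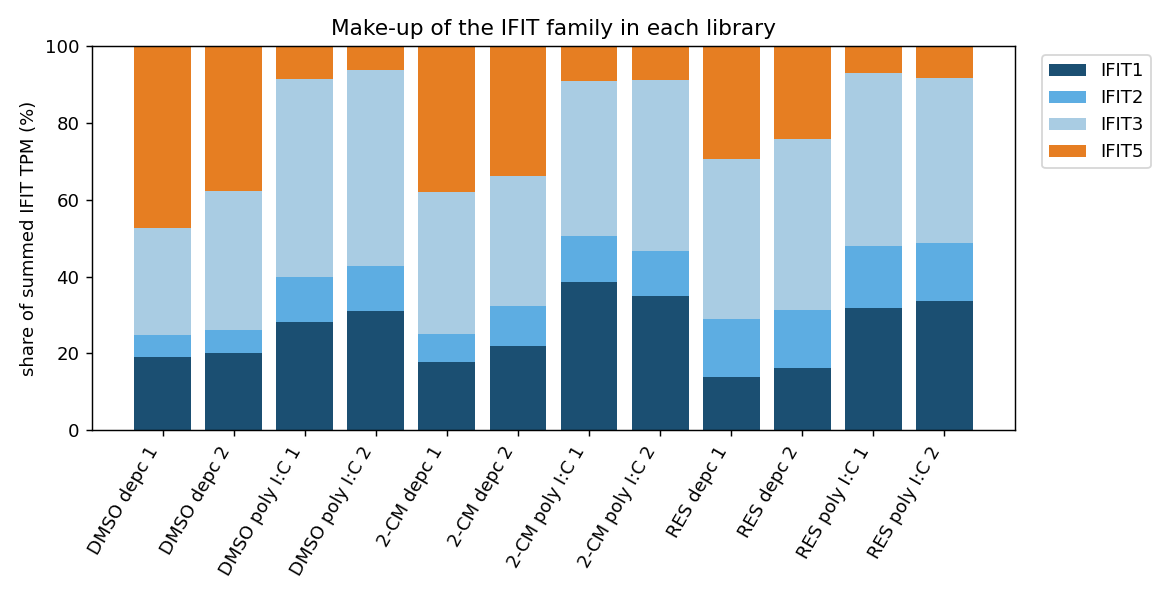
Share (%) of the summed TPM of the family that each member held in each of the 12 libraries. IFIT5, at the top of each bar, held 24.2% to 47.5% in the 6 depc libraries and 6.18% to 9.14% in the 6 poly I:C libraries.

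Each member was then compared with IFIT1 within a library, as a difference of log2(TPM + 1). The scaling of a library cancels from this ratio fully with no pseudocount and in part with it. The test was a two-sided exact permutation of the transfection labels within compound, with 216 arrangements and a smallest possible p of 0.00926, and 3 ratios were tested. IFIT1 had the 4th largest average rise of the 17185 genes tested, so a fall against it was likely for almost any gene. The share of all genes with such a fall was not computed, so these p-values do not set a member apart from other genes. The IFIT5 to IFIT1 ratio was 0.36 to 1.00 with depc and -2.22 to -1.68 with poly I:C, and the transfections did not overlap. It changed by -2.73 under DMSO, -2.54 under 2-CM and -2.66 under RES, with a mean of -2.64 (exact permutation p = 0.00926, adjusted p = 0.0139 over the 3 ratios). The fall was -2.79 with the GC correction and -2.99 with no pseudocount. The IFIT2 to IFIT1 ratio changed by -0.91 (exact permutation p = 0.00926, adjusted p = 0.0139), but by -0.39 with no pseudocount (adjusted p = 0.139), so its call depended on the pseudocount. The IFIT3 to IFIT1 ratio changed by -0.24 (exact permutation p = 0.231), with 0.33 under DMSO, -0.31 under 2-CM and -0.75 under RES. It was -0.50 with a pseudocount of 0.1 (adjusted p = 0.0648) and -0.55 with none (adjusted p = 0.0833), so its size depended on the pseudocount too.

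The TPM of a gene is the sum over its annotated transcripts, and their shares differed between libraries. IFIT1 was read from ENST00000371804.4 at 96.6% to 99.8% of its TPM in 5 poly I:C libraries and at 4.09% in DMSO poly I:C replicate 1. In that library ENST00000546318.2 was assigned 93.5 TPM. Its middle exon (chr10:89393107-89393341), which the other transcript lacks, had a coverage of 10.2 reads per base there, between flanking exons at 280 and 329. With the most abundant transcript alone in place of the sum, the IFIT5 to IFIT1 ratio changed by -2.06 (exact permutation, adjusted p = 0.0833) and the IFIT2 to IFIT1 ratio by 0.13. In this setting IFIT1 under DMSO was at 2.64 (adjusted p = 0.137) and lost its call. The transcripts differ in length (4613 and 4302 bases), so the summed TPM of IFIT1 also depends to a degree on the split.

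IFIT2 with poly I:C came mostly from ENST00000611722.1 (75.8% to 88.8%), which was listed at 0 in the 2 DMSO and 2 2-CM depc libraries. Another transcript, ENST00000638108.1, starts upstream at 89283694 and was assigned 5.89% to 18.0% with poly I:C. Its exons 1 to 3, which the other IFIT2 transcripts lack, had at most 2.98 reads per base with poly I:C and 2.12 with depc. Its last exon overlaps theirs and reached 23.7 with poly I:C. Its share therefore rests mostly on shared exons and does not show use of the upstream start. IFIT3 was read from 2 starts. ENST00000371818.9, from the upstream start whose window is shown above, held 66.8% to 81.0% of its TPM with poly I:C and ENST00000371811.4 19.0% to 33.2%. The latter starts at 89332484 in GENCODE, before the RefSeq start at 89332529 that sets the downstream window, and the last match shown there reaches into its exon. With depc the upstream share ran from 0% to 97.9%, at levels of a few TPM. IFIT5 has 1 annotated transcript of 2 exons, and its last exon makes up 94.1% of its length. Coverage, not scaled for depth, was 3.06 to 5.64 reads per base in its first exon with depc and 16.3 to 63.8 with poly I:C. In its last exon it was 4.52 to 22.7 and 27.9 to 142. The ratio of last to first exon was 0.90 to 4.36 with depc, highest in DMSO depc replicate 1, and 1.32 to 2.22 with poly I:C. The reason for this spread was not tested.

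**Figure D4:**
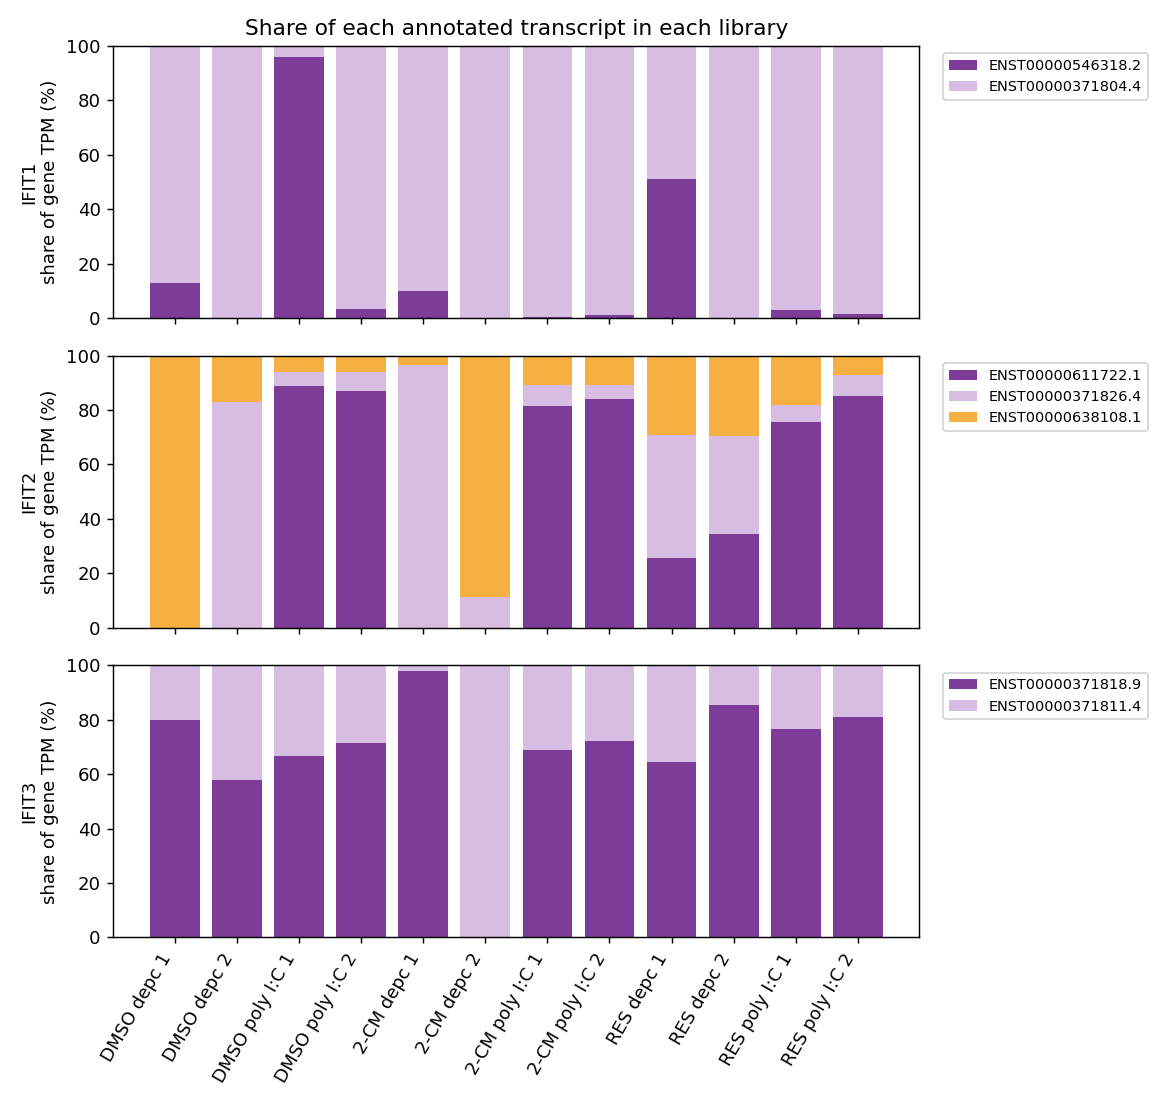
Share (%) of gene TPM assigned to each annotated transcript of IFIT1, IFIT2 and IFIT3 in the 12 libraries. The poly I:C bars resemble each other in IFIT2 and IFIT3, and in IFIT1 the bar of DMSO poly I:C replicate 1 stands apart, with 95.9% on ENST00000546318.2.

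Replicates of a group differed in how levels followed the GC content of genes. GC content was 41.9% in IFIT1 and IFIT2, 44.3% in IFIT3 and 37.6% in IFIT5, which placed IFIT5 at the 3.79th percentile of genes tested. In 23 of 24 pairs of member and group, the replicate with relatively more signal from AT-rich genes had the higher level, the exception being IFIT2 in 2-CM depc. The members moved together over the libraries (Pearson's r = 0.953 to 0.996), so these pairs are not 24 separate observations. The share of all genes that were higher in the same replicate was not counted. The replicates of a member differed by a median of 2.14-fold (1.04-fold to 3.76-fold) in TPM. On the log2(TPM + 1) scale they differed by a median of 1.93-fold (1.03-fold to 3.07-fold) before the GC correction and 1.30-fold (1.01-fold to 2.06-fold) after it. With the correction IFIT5 was called under DMSO (1.86, adjusted p = 0.0253) and remained uncalled under RES (1.50, adjusted p = 0.190). Under 2-CM the corrected responses were 5.83 for IFIT1, 4.69 for IFIT2, 5.80 for IFIT3 and 2.92 for IFIT5. The members stayed called there, against 36.3% of genes called higher. The corrected average responses were 4.89 for IFIT1, 3.98 for IFIT2, 4.76 for IFIT3 and 2.09 for IFIT5. Both 2-CM poly I:C libraries had the strongest excess of AT-rich genes, where the 1719 genes of lowest GC content lay 1.25 and 0.98 log2 units above their mean over libraries. Both 2-CM depc libraries went the other way, with these genes at -0.73 and -0.98. GC content therefore cannot be fully told apart from the 2-CM poly I:C group or from the poly I:C response under 2-CM.

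The authors deposited their own comparison of poly I:C with depc for each compound, with a mean of normalised counts per gene. In the authors' deposited table for DMSO all 4 members had an adjusted p under 0.05, as did 1.25% of its genes, with log2 fold changes of 5.71 for IFIT1, 5.86 for IFIT2, 5.80 for IFIT3 and 2.57 for IFIT5. In the authors' deposited table for 2-CM, where 46.4% of genes passed, all 4 did, with 6.84, 6.17, 6.15 and 3.92 in the same order, and IFIT1 had the smallest adjusted p of the table. In the authors' deposited table for RES, where 0.363% passed, IFIT1 (5.25), IFIT2 (4.01) and IFIT3 (4.14) did. IFIT5 (2.29, adjusted p = 0.0564) was the first gene below the threshold in that table, at rank 83 after 82 that passed. IFIT5 thus had the smallest value of the family in each of the authors' deposited tables.

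The genes around the family in its pathway were counted by role, with fixed lists set beside the median of all genes. For the average over compounds this median was 0.16, and 13.4% of all genes were called higher and 17.8% lower. The shares called higher and lower were 0.797% and 3.28% under DMSO, 37.5% and 11.8% under 2-CM, and 0.198% and 0.244% under RES. List genes are given with the reported settings only. Over all genes, 3054 were called lower in the average, which became 909 with the GC correction. Of 16 genes of interferon signalling and ISGF3, 9 rose and 2 fell in the average, with a list median of 0.73. IFNB1, IFNL1, IFNL2 and IFNL3 passed the filter only through poly I:C libraries, so their rise was partly set by it. Of the other 12, 5 rose and 2 fell (median 0.57). Under the compounds taken singly, 5 of all 16 rose and 1 fell with DMSO, 10 rose and 2 fell with 2-CM, and 2 rose with RES. Of the 12, 3 rose and 1 fell with DMSO, 6 rose and 2 fell with 2-CM, and 1 rose with RES. IRF9, the DNA-binding subunit of ISGF3, rose from 1.44 to 47.7 TPM (group means) under DMSO and by 3.92 in the average (adjusted p = 2.64e-06). The type III interferon IFNL1 rose by 3.48 (adjusted p = 2.28e-05), and the type I interferon IFNB1, listed at 0 in every depc library, reached 0.933 to 4.33 TPM with poly I:C. TYK2, a receptor-bound kinase, fell by 0.79 (adjusted p = 0.00285), and IRF3 fell by 0.74 (adjusted p = 0.00466). The 2 of 16 that fell are no larger a share than the 17.8% of all genes called lower in the average.

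Of 10 RNA sensors and adaptors, 7 rose and 2 fell in the average (median 1.28), 4 rose under DMSO, 8 rose and 1 fell under 2-CM, and none was called under RES. ZBP1 passed the filter only through poly I:C libraries, and of the other 9 genes 6 rose and 2 fell in the average. Of these 9, 3 rose under DMSO, and 7 rose and 1 fell under 2-CM. The 2 of 10 that fell are near the 17.8% of all genes that were called lower in the average. DDX58 (RIG-I), which binds triphosphate-ended RNA as IFIT5 does, rose by 3.91 (adjusted p = 7.34e-04). IFIH1 (MDA5), the sensor of long double-stranded RNA, rose by 2.94 (adjusted p = 4.72e-04). Their adaptor MAVS fell by 0.54 (adjusted p = 0.00826) and the kinase IKBKE fell by 0.46 (adjusted p = 0.0271).

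The other interferon-induced antiviral effectors moved most like the family: 20 of 20 rose in the average (median 3.92), 18 under DMSO (3.57), 20 under 2-CM (4.87) and 15 under RES (3.22). Of all genes, 13.4%, 0.797%, 37.5% and 0.198% were called higher in these comparisons. IFI44, IFI44L, MX2, OAS2 and RSAD2 passed the filter only through poly I:C libraries. Of the other 15, 15 rose in the average (median 2.99), 13 under DMSO (3.25), 15 under 2-CM (3.74) and 10 under RES (2.49). OAS2, which makes the activator of RNase L, had the largest average rise (6.14, adjusted p = 4.40e-07), and IFI27 followed (5.65, adjusted p = 2.33e-07). The smallest rises were those of BST2, which tethers virions (0.82, adjusted p = 9.41e-04), and ZC3HAV1, which binds CpG-rich viral RNA (1.51, adjusted p = 9.60e-04). IFIT1, IFIT2 and IFIT3 lay above both medians of this list in the average, and IFIT5 below them.

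IFIT1 reads the cap, so enzymes that build, methylate or remove caps were counted too. Of 7, 2 rose and 1 fell in the average (median 0.84), none was called under DMSO or RES, and 5 rose and 1 fell under 2-CM. Of all genes, 13.4% were called higher and 17.8% lower in the average, and the 1 of 7 that fell is near the latter share. RAMAC, the activator of the cap guanine methyltransferase, rose by 1.20 (adjusted p = 0.0201). CMTR1, which adds the ribose methyl group whose absence IFIT1 detects and is itself interferon-induced, rose by 0.45 (adjusted p = 0.0114). PCIF1, which methylates a cap-adjacent adenosine, fell by 0.56 (adjusted p = 0.0122), the capping enzyme RNGTT was at 0.85 (adjusted p = 0.128), and DXO, which removes incomplete caps, was at -0.24 (adjusted p = 0.185).

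Of 16 genes for cap binding and eIF3, the initiation factors that IFIT1 and IFIT2 engage, 1 rose and 6 fell in the average (median 0.10). Under the compounds, 3 fell with DMSO, 5 rose and 7 fell with 2-CM, and 1 fell with RES. The 5 of 16 that rose with 2-CM are near the 37.5% of all genes called higher there. Of all genes, 17.8% were called lower in the average, 3.28% under DMSO, 11.8% under 2-CM and 0.244% under RES. With the GC correction 5.29% were called lower in the average and 1.35% under 2-CM. The falls in this list were not counted with that correction. The cap-binding protein EIF4E rose by 1.69 (adjusted p = 0.0424) in the average, and its 2-CM value of 4.30 (adjusted p = 0.0270) stood beside -0.31 (adjusted p = 0.919) under DMSO. The difference of these responses, 4.61 (SE 1.31, adjusted p = 0.161), was not called. The scaffold EIF4G1 fell by 0.94 (adjusted p = 4.42e-04) and EIF3C fell by 0.65 (adjusted p = 0.00134), while EIF3E was at 1.17 (adjusted p = 0.0783).

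**Figure D5:**
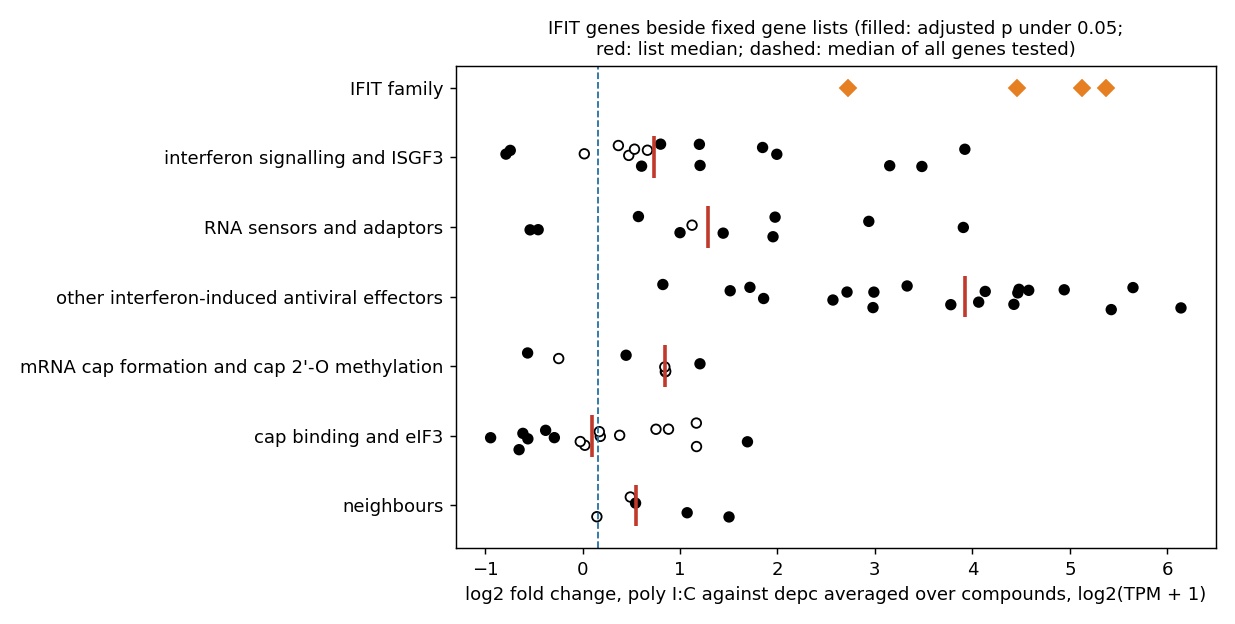
Log2 fold change of poly I:C against depc averaged over compounds (x axis, log2(TPM + 1) scale) for the IFIT members (diamonds) and for each tested gene of the fixed lists (circles, filled where the adjusted p is under 0.05), with list medians in red and the median of all genes (0.16) dashed. The members (2.72 to 5.37) lie within the range of the antiviral effectors (0.82 to 6.14).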

How the data were processed

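Polyadenylated RNA of 12 libraries was measured by stranded paired-end sequencing with reads of 101 bases, per the labels. The submitters' processing notes name bcl2fastq 2.20, HISAT2 2.1.0, StringTie, DESeq2 and hg38. StringTie 2.0.4 was run by the authors on the annotated transcripts of GENCODE 32 without a strand option, per the file headers, and gave coverage, FPKM and TPM per transcript. The authors' deposited tables hold a mean of normalised counts (a signal), log2 fold changes with standard errors on the log2 scale, a test score, and p-values, per the file headers.

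Transcript TPM was summed to genes (Python 3.11.15). Reads were estimated as coverage times length over read length. Count totals per library were not used, so the precision is that of the replicates. All 12 libraries entered a limma 3.58.1 fit (R 4.3.3) of log2(TPM + 1) on 6 group means, with variances moderated along their trend (6 residual and 2.74 prior degrees of freedom). Genes were kept if 2 or more libraries reached 1 TPM (17185), and Benjamini-Hochberg adjustment ran over all of them within each of 10 contrasts. The fit was tested on simulated data. The GC correction subtracts a smooth curve of gene GC content (span 0.3) from each library. Groups came from the labels alone.

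The members, the gene lists and the tests were chosen with earlier results of these data known. All 4 members are named in each comparison. Of each list, the 2 largest rises and 2 largest falls in the average were to be named, as well as the 3 genes most alike in pattern to each member, among genes with a mean TPM of 5 or more. IFNB1, IFIT1B, IFIT6P, CH25H, PANK1 and DXO were named after their values were seen. Alternatives were FPKM, upper-quartile and median-of-ratios scaling, estimated reads as CPM, no filter or a minimum of 5 TPM, 0.1 as pseudocount, the GC correction, the replicate number as a block with and without it, the most abundant transcript alone, only the groups compared, and each library left out in turn.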

Additional observations from a re-analysis of the deposited data

How the results depend on the processing

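The counts of members called under 2-CM and in the average over compounds stayed within 1.5 times of the reported ones under every alternative run. Under DMSO the 3 members called became 0 in a fit of only the groups compared and 0 to 3 with a library left out. Under RES they became 1 with no filter on low genes, 1 with the most abundant transcript alone, 0 in a fit of only the groups compared and 0 to 3 with a library left out. With the replicate number as a block the RES count was 1, and the block changed the count of members called in no other comparison by over 1.5 times. For 2-CM against DMSO with poly I:C, 0 became 2 with the GC correction and 3 with the replicate block and the GC correction together. Same-numbered libraries share only a number in the labels, and their deviations correlated at 0.622 under DMSO, 0.153 under 2-CM and -0.721 under RES, so the number was not taken to pair them. Over same-numbered pairs, an exact sign-flip test gave the IFIT5 to IFIT1 and IFIT2 to IFIT1 ratios an adjusted p of 0.0469 each. For the IFIT3 to IFIT1 ratio it was 0.344. These p-values rest on pairs not taken as such, and a fall against IFIT1 was likely for almost any gene.

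The ratio to IFIT1 moved for IFIT2 to -0.50 with a pseudocount of 0.1 and -0.39 with none, and for IFIT3 to -0.50 and -0.55. With the most abundant transcript alone the ratio changed sign for IFIT2 (0.13) and IFIT3 (0.36) and was -2.06 for IFIT5. Values near 0 changed sign in several settings. For RES against DMSO with poly I:C, IFIT1 was -0.14 with upper-quartile and -0.16 with median-of-ratios scaling, and IFIT5 was -0.21 and -0.23 with these, -0.011 with estimated reads as CPM and -0.0702 with the GC correction, alone or with the replicate block. For 2-CM against DMSO with depc, IFIT1 was 0.041 with the GC correction, alone or with the replicate block, and IFIT2 was 0 with the most abundant transcript alone. For the difference of response RES minus DMSO, IFIT1 was 2.29 with the most abundant transcript alone. That transcript held 4.09% of the IFIT1 TPM in DMSO poly I:C replicate 1, which enters the ratios above too.

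With a library left out in turn, RES against DMSO with depc ran from -0.15 to 0.81 for IFIT1, 0.59 to 1.70 for IFIT2, 0.39 to 1.71 for IFIT3 and -0.57 to 0.93 for IFIT5. RES against DMSO with poly I:C ran from -0.61 to 0.94 for IFIT1, -0.26 to 1.11 for IFIT2, -0.91 to 0.51 for IFIT3 and -0.73 to 0.89 for IFIT5. The difference of response RES minus DMSO ran from -0.93 to 0.62 for IFIT1, -1.41 to -0.04 for IFIT2, -1.96 to -0.54 for IFIT3 and -0.90 to 0.72 for IFIT5. For 2-CM against DMSO with depc the ranges were -0.54 to -0.04, -0.10 to 0.14, -0.41 to -0.05 and -1.02 to -0.08 in the same order, with the values nearest to 0 for IFIT1, IFIT3 and IFIT5 without DMSO depc replicate 1. The uncalled response of IFIT5 ran from 1.25 to 2.80 under DMSO and 1.12 to 2.74 under RES. The lone library left in a group is assumed to vary like the others. Where no value shows why a result moved, the cause was not tested.

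Counts over all genes, which set the background, moved more. Under DMSO 701 genes (19.5% of them higher) became 125 (70.4%) with FPKM, 138 (69.6%) with upper-quartile scaling, 127 (77.2%) with median-of-ratios scaling, 244 (46.3%) with estimated reads as CPM, 346 with the replicate block and 6 with only the groups compared. Under RES 76 (44.7% higher) became 36 (88.9%), 38 (94.7%) and 39 (94.9%) with the first 3 of these settings in turn, 39 with the replicate block, 178 with no filter, 125 with a TPM minimum of 5 and 0 with only the groups compared. Under 2-CM 8475 (76% higher) became 7530 (46.3%) with median-of-ratios scaling and 649 with no filter. In the average 5361 (43% higher) became 6360 (61.5%) with FPKM and 2945 (69.1%) with the GC correction. For 2-CM against DMSO with poly I:C 18 became 2 with median-of-ratios scaling and 5386 with the GC correction. For RES against DMSO, 27 with poly I:C became 9 to 239 and 177 with depc became 13 to 396 over the settings that kept all libraries, and both became 0 with only the groups compared. With a library left out in turn, the genes called were 25 to 908 under DMSO, 37 to 10157 under 2-CM, 17 to 53 under RES and 2344 to 9183 in the average.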

Other observations

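The genes whose pattern over the 12 libraries was most like that of each member were listed from 11905 genes by Pearson's r of log2(TPM + 1), as a description, since all share the libraries and the large step with poly I:C. For IFIT1 they were IFI44 (r = 0.996), AL445490.1 and the chemokine CXCL10. IFIT2 and IFIT3 had AC116407.2 first (0.993 and 0.995) and the chaperone RTP4 next, followed by the nucleic acid sensor IFI16 for IFIT2 (0.991) and by AL445490.1 for IFIT3. IFIT5 had a different set, the helicase-like DDX60 (0.997), the aminopeptidase LAP3 and DDX60L. IFIT1, IFIT2 and IFIT3 correlated with each other at 0.992 to 0.996 and with IFIT5 at 0.953 to 0.957.

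Of 16 genes within 250 kb of the members, 5 passed the filter, of which CH25H did so only through poly I:C libraries. Of the other 4, 2 rose in the average over compounds, where 13.4% of all genes did. CH25H, which makes the antiviral 25-hydroxycholesterol, rose by 1.07 (limma, adjusted p = 9.24e-04) and was at or under 0.0430 TPM in the depc libraries. LIPA rose by 1.50 (adjusted p = 0.0240) and PANK1 by 0.54 (adjusted p = 0.0451), while SLC16A12 was at 0.49 (adjusted p = 0.188).

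Limits apply to all values. Each group has 2 libraries, and the fit borrows its spread from all 12. The depc levels of IFIT2 and IFIT1 lie near the pseudocount (medians of 0.557 and 1.24 TPM), so their fold changes are understated. To a lesser degree this holds for IFIT3 and IFIT5 (depc medians of 2.70 and 2.33 TPM). The coverage files carry no read counts, so counting error was not given per gene.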
